A study of Gallus gallus with 24 samples.

Results

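Interdigital region 3 is the soft tissue between neighbouring digits of the embryonic chicken hindlimb. In the deposited table of its transcripts, 33 of 30108 genes met all criteria of a rule for higher means at both 6 h and 8 h. The rule, given below, set these means against those at 4 h and 11 h after 7 days of incubation. The tissue came from embryos for which the labels name no treatment beyond the incubation time: 6 libraries each were made at 7 days plus 4, 6, 8 and 11 hours, and the labels give no strain and do not say whether each library is from 1 embryo. The genes were picked by their level and by their group means on the log2(CPM + 1) scale, where CPM is counts per 1000000 reads. A member had a mean of 10 to 1000 CPM, and the lower of its 6 h and 8 h means exceeded the higher of its 4 h and 11 h means by at least 0.3, a difference called the margin here. It also had a pooled SD within times under 0.6 and differed by less than 0.4 between libraries with the gene ENSGALG00010011988 at 50 CPM or more and the rest. That gene marks a division of the libraries into 2 levels that does not follow time. Replicate 5 at 6 h and replicates 2 and 5 at 8 h, all under 1000000 reads, took no part in the choice, which leaves 6, 5, 4 and 6 libraries at 4, 6, 8 and 11 h. Because time chose the members, their higher level at 6 h and 8 h is given as a description. The fit of that contrast over all genes serves as background only.

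The interdigital mesenchyme is shaped by bone morphogenetic proteins, secreted ligands that act through receptor kinases and SMAD transcription factors and that promote cell death between the digits. Reactive oxygen species, held in check by antioxidant enzymes, are also known to take part in this regression, and the title of the study places the time course in that context. Gene names could not be attached to the identifiers: of the 25635 genes in the reference table, 0 carry an identifier of this kind. No role can therefore be given to any member, the tissue could not be checked against its markers, and 4 members are named by identifier. In such bulk tissue, more cells of a type and more RNA per cell cannot be told apart.

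Summed over the genes, the 21 libraries used held 1794673 to 8134730 reads, as recovered from the deposited values. The 9 at 6 h and 8 h averaged 4319121 ± 1813030 reads and the 12 at 4 h and 11 h averaged 5107255 ± 1462718 (SD). Library numbers, taken from the descriptions, were cut into a lower and an upper range that no label defines. Of the libraries at 6 h and 8 h, 7 have upper numbers and 2 have lower ones (replicate 1 at 6 h and replicate 6 at 8 h), whereas all 12 at 4 h and 11 h have lower ones. Time and library number are thus largely confounded in this pattern. The marker gene was at 50 CPM or more in 3 of the 9 libraries at 6 h and 8 h and in 7 of the 12 at 4 h and 11 h. The log2 level of the members in such libraries minus the rest ran from -0.39 to 0.25. It was below 0 in most members, and its absolute value had a median of 0.14. Over all genes that met the level, spread and marker criteria this median was 0.11. More of the libraries at 4 h and 11 h have the marker at this level, so choosing genes for lower means there pulls the difference below 0. Its sign is thus partly set by the choice.

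The members were weakly to moderately expressed genes with small differences. Of the 33, 31 were under 50 CPM and 15 under 20 CPM, and their median level was 20.7 CPM (range 10.8 to 108.2). The 5718 genes that met the level, spread and marker criteria, called comparable genes below, had a median of 38.9 CPM, and 60.3% of them were under 50 CPM. Over the members, the median of the mean level was 16.5 CPM at 4 h, 24.7 CPM at 6 h, 24.5 CPM at 8 h and 17.9 CPM at 11 h. On the log2 scale the mean of 6 h and 8 h stood 0.37 to 0.74 above that of 4 h and 11 h (median 0.49), with standard errors of 0.14 to 0.26. The median corresponds to 1.41-fold and the range to 1.29-fold to 1.67-fold, on the log2(CPM + 1) scale. The same values chose the members, so these sizes are partly set by the choice. The standard errors do not take the choice into account. The median comparable gene was 0.03 lower at 6 h and 8 h (difference -0.03).

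**Figure D1:**
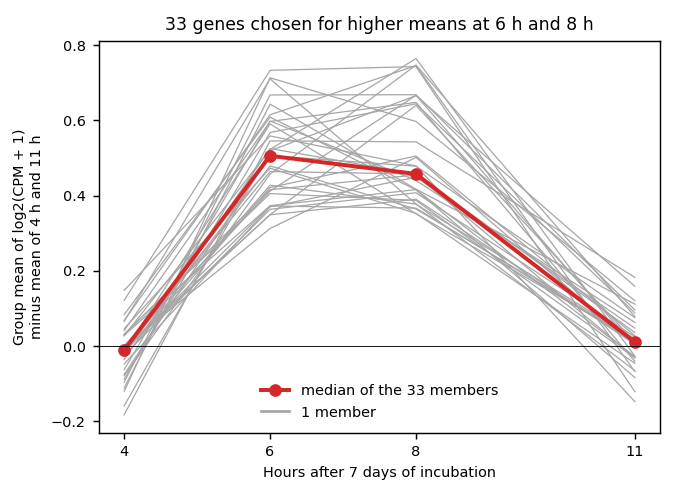
Group means of the 33 members at 4, 6, 8 and 11 h (x axis, hours after 7 days of incubation), as log2(CPM + 1) minus the mean of that gene at 4 h and 11 h (y axis); each grey line is 1 member and the red line their median, over 6, 5, 4 and 6 libraries. The plateau at 6 h and 8 h follows from how the members were chosen, and the median member stands 0.49 above 4 h and 11 h.

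Of the comparable genes, 680 had a margin above 0, and 1249 had one above 0 in the opposite direction. Among the members the margin was 0.36 at the median and 0.61 at most, and 11 had a margin of 0.4 or more. The 3 members nearest the limit had margins of 0.311, 0.307 and 0.306, and the 3 genes just outside it had 0.299, 0.297 and 0.295. Another 30 genes at this level had a sufficient margin but failed another criterion: 9 failed the spread limit, 8 the marker limit and 13 both. The margin was limited by the 6 h mean in 17 members and by the 8 h mean in 16. On the low side it was limited by 4 h in 12 members and by 11 h in 21. The mirror criterion, a margin of 0.3 or more below 4 h and 11 h at both 6 h and 8 h, was met by 55 genes. Members were thus 0.577% of the comparable genes and genes with the mirror pattern 0.962%.

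No gene differed between 6 h and 8 h on one side and 4 h and 11 h on the other at an adjusted p under 0.05 (limma, Benjamini-Hochberg over the 15121 genes averaging 1 CPM or more). The count called was 0 of these genes, or 0.0%, and 0 of the 33 members, all of which were in the fit. Since the same values chose the members, nothing about them is read from this count. Unadjusted, 942 genes had a p under 0.05 by limma, 376 of them (2.49%) higher at 6 h and 8 h, and 907 by limma-voom, which called 0 as well. Evenly spread p-values would give 756 for both directions together, a figure to set against 942 and 907 but not against 376. Most of the 942 genes were lower at 6 h and 8 h, the direction opposite to that of the members.

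The libraries of the 2 sides overlapped in every member. All 9 libraries at 6 h and 8 h above all 12 at 4 h and 11 h was found in 0 members and in 0 of the 15121 tested genes (0.0%). The number of the 9 libraries above the highest of the 12 was 0 to 6, with a median of 3. It was 5 or more in 9 members and in 0.647% of the comparable genes. Against the median of the 12, all 9 libraries were higher in 10 members, 8 in 14, 7 in 8 and 6 in 1. These counts describe the choice itself.

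ENSGALG00010024051 had the largest margin, 0.61. At 4 h its lowest, median and highest libraries had 7.09, 12.2 and 16.8 CPM. At 6 h its 5 libraries had 14.9, 15.6, 13.9, 23.3 and 27.4 CPM, and at 8 h its 4 libraries had 26.8, 13.8, 16.7 and 18.8 CPM. At 11 h the lowest, median and highest libraries had 7.69, 10.02 and 12.3 CPM. Every library at 6 h and 8 h lay above every library at 11 h, while 4 h overlapped both. The same values gave this gene the largest margin, so the separation from 11 h is partly set by the choice. The share of all genes separated from 11 h in this way was not counted. The mean was 19.0 ± 5.44 CPM over 6 h and 8 h (SD, n = 9) and 11.0 ± 3.08 CPM over 4 h and 11 h (SD, n = 12), a log2 difference of 0.74 ± 0.20 (SE). In the 3 shallow libraries, which were not used to choose it, it stood at 6.68 CPM in replicate 5 at 6 h and at 7.83 and 8.69 CPM in replicates 2 and 5 at 8 h. These values rest on 5, 7 and 6 reads and lie below all 9 libraries of those times that were used.

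ENSGALG00010001418 was second, with a margin of 0.57 and a higher level. Its lowest, median and highest libraries at 4 h had 15.2, 25.8 and 49.2 CPM. The 5 libraries at 6 h had 49.3, 65.8, 95.8, 35.7 and 19.9 CPM, and the 4 at 8 h had 50.6, 45.3, 46.7 and 44.9 CPM. At 11 h the lowest, median and highest had 23.9, 31.2 and 43.1 CPM. The libraries at 6 h were spread widely, 53.3 ± 29.2 CPM (SD, n = 5), whereas those at 8 h were close together, 46.9 ± 2.61 CPM (SD, n = 4). At 6 h the lowest libraries, replicates 4 and 6, had the marker gene at 50 CPM or more, and replicates 1, 2 and 3 did not. Of the libraries used at 8 h only replicate 4 did, at 46.7 CPM. Over the 21 libraries, those with the marker at this level minus the rest differed by -0.39, near the limit of 0.4. The log2 difference of 6 h and 8 h from 4 h and 11 h was 0.67 ± 0.21 (SE). The mean was 50.5 ± 20.98 CPM over 6 h and 8 h (SD, n = 9) and 30.4 ± 9.57 CPM over 4 h and 11 h (SD, n = 12). In the shallow libraries it had 44.1 CPM at 6 h and 14.5 and 18.8 CPM at 8 h, and the values at 8 h lay below all 4 libraries of that time that were used. They rest on 33 reads at 6 h and 13 in each library at 8 h.

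**Figure D2:**
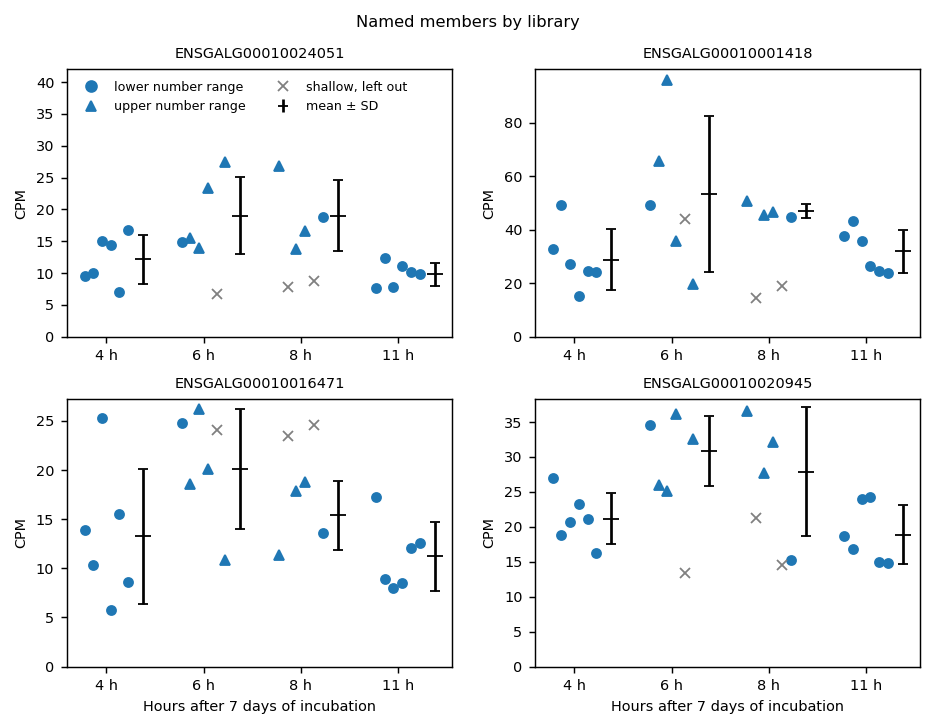
CPM (y axis, from 0) of the 4 members named by identifier in each library at 4, 6, 8 and 11 h (x axis); circles and triangles are libraries of the lower and upper number range, crosses the 3 shallow libraries left out of the choice, and bars the mean ± SD of the others. ENSGALG00010024051 reaches 27.4 CPM at 6 h and 26.8 CPM at 8 h, but its shallow libraries stay at 6.68 to 8.69 CPM.

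The most abundant member, eighteenth in order of margin, shows how single libraries enter. Its 5 libraries at 6 h had 76.4, 122.6, 70.8, 259.4 and 143.3 CPM and its 4 at 8 h had 188.4, 109.1, 105.3 and 82.8 CPM. Its range was 63.6 to 109.8 CPM at 4 h and 56.1 to 163.5 CPM at 11 h. Only 2 of the 9 libraries at 6 h and 8 h exceeded the highest at 11 h.

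Between the high times themselves, 8 h against 6 h, none of the members was called. Of the 33, 0 passed an adjusted p of 0.05 (limma), as did 0.0% of the genes tested, and 0 had an unadjusted p under 0.05, against 926 of 15121 genes (6.12%). The difference was positive in 17 members and negative in 16, from -0.33 to 0.29 on the log2 scale (median 0.00), with a median standard error of 0.30. Requiring both means to be high favours members with small differences between them, so the low count is partly set by the choice.

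The 2 members with the most negative difference by the moderated statistic were ENSGALG00010016471 and ENSGALG00010020945. ENSGALG00010016471 had 11.4, 17.9, 18.8 and 13.6 CPM at 8 h, against 24.8, 18.5, 26.2, 20.1 and 10.9 CPM at 6 h. Its means were 15.4 ± 3.52 CPM at 8 h (SD, n = 4) and 20.1 ± 6.06 CPM at 6 h (SD, n = 5), and the 2 times overlapped (log2 difference -0.33 ± 0.34, SE, limma, adjusted p = 0.92). Its range was 5.78 to 25.3 CPM at 4 h and 8.04 to 17.2 CPM at 11 h. In the shallow libraries it had 24.1 CPM at 6 h and 23.5 and 24.6 CPM at 8 h, and these 8 h values lay above the 4 that were used. They rest on few reads, 18 at 6 h and 21 and 17 at 8 h.

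ENSGALG00010020945 had 36.5, 27.7, 32.2 and 15.2 CPM at 8 h, against 34.6, 26.0, 25.1, 36.1 and 32.6 CPM at 6 h (log2 difference -0.19 ± 0.25, SE, limma, adjusted p = 0.93). The sign rests on replicate 6 at 8 h, the lowest library, without which the difference was 0.062. Its range was 16.2 to 27.0 CPM at 4 h and 14.8 to 24.2 CPM at 11 h, and 6 of its 9 libraries at 6 h and 8 h exceeded the highest of the 12 others. In the shallow libraries it had 13.4 CPM at 6 h, below the 5 used there and all 12 libraries at 4 h and 11 h, and 21.2 and 14.5 CPM at 8 h, none of them above the highest at 4 h or 11 h. The reads behind these values were 10 at 6 h and 19 and 10 at 8 h.

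Between the low times, 11 h against 4 h, 0 members passed an adjusted p of 0.05 (limma; 0.0% of genes) and 0 had an unadjusted p under 0.05, against 984 of 15121 genes (6.51%). The difference was positive in 21 members and negative in 12, from -0.30 to 0.37 (median 0.02), where the median of all tested genes was -0.06. The same limit of the choice holds, since a high mean at either time lowers the margin.

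Library number was not a criterion of the choice, and it could be set against the members within 6 h and 8 h. The limit on the SD within times holds down differences between libraries of a time. The counts below are thus partly set by the choice. Upper against lower numbers, with time in the fit, gave 0 members at an adjusted p under 0.05 (limma; 0.0% of genes) and 1 at an unadjusted p under 0.05, or 1 of 33, where 2.94% of all genes had one. The difference was positive in 17 members and negative in 16, from -0.62 to 0.72 (median 0.00), with a median standard error of 0.37. This error leaves differences as large as those between the times unseen in a single gene. The 1 member was the most abundant one, at 0.72 ± 0.34 (SE, limma, adjusted p = 1.00). With lower-number libraries alone, 2 at 6 h and 8 h and 12 at 4 h and 11 h, the mean of 6 h and 8 h was higher in 31 of 33 members, with a median difference of 0.51. The 2 exceptions were the most abundant member, at -0.16, and the thirty-first in order of margin, at -0.10. Both libraries took part in the choice, so that this count is in part set by it.

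The median deviation of the members from their 4 h and 11 h mean was 0.51 to 0.58 in the 5 libraries at 6 h and 0.39 to 0.70 in the 4 at 8 h. It was -0.24 to 0.13 at 4 h and -0.07 to 0.09 at 11 h. Replicate 4 at 8 h had all 33 members above that mean, and replicate 4 at 6 h, the lowest in this respect at its time, had 25. Replicate 1 at 6 h stood at 0.51 and replicate 6 at 8 h at 0.49, within the range of the 7 libraries with upper numbers. Both took part in the choice, as did those 7, so these medians are in part set by it.

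**Figure D3:**
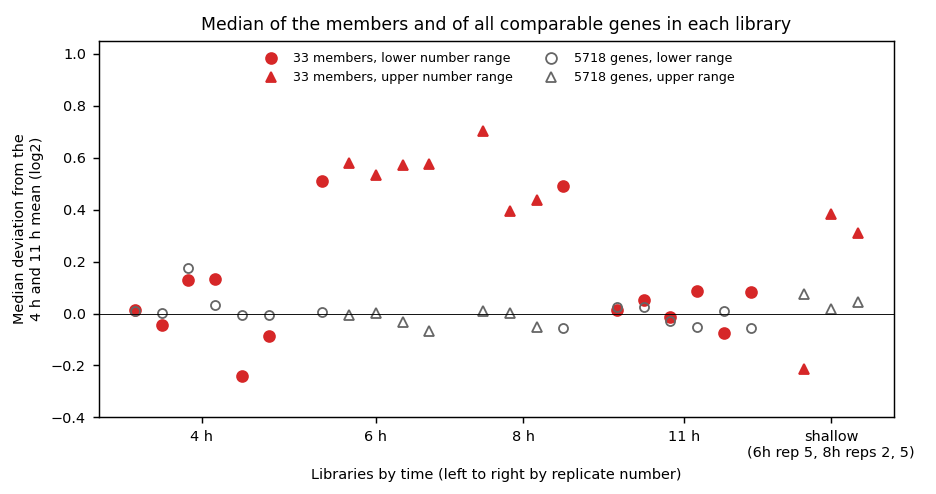
Median over the 33 members (red) and over the 5718 comparable genes (open) of log2(CPM + 1) minus the 4 h and 11 h mean (y axis) in each library, by time (x axis); circles are lower and triangles upper library numbers, and the 3 shallow libraries are at the right. The 9 libraries used at 6 h and 8 h lie at 0.39 to 0.70, by choice, and replicate 5 at 6 h, which was not used, lies at -0.21.

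The 3 shallow libraries did not take part in the choice, and all 3 had the marker gene at 50 CPM or more. The 4 h and 11 h mean that they are set against did, for being low in the members, so that a positive deviation is partly set by the choice. In replicate 5 at 6 h, 14 of 33 members were above their 4 h and 11 h mean, with a median deviation of -0.21, against 55.3% of the comparable genes and a median of 0.08. In replicates 2 and 5 at 8 h it was 22 and 20 of 33 members, with medians of 0.38 and 0.31, against 51.2% and 52.7% of the comparable genes and medians of 0.02 and 0.04. The members were thus above the other genes in both libraries at 8 h and below them in the 1 at 6 h. Averaged over the 3 libraries, 20 of 33 members were above, and the median deviation was 0.21 for the members and 0.00 for the comparable genes. With TMM factors (trimmed mean of M values) the comparable genes stood at a median of -0.24 in these libraries, and the median of the 38 members then chosen was -0.05, below 0 but above the other genes. Depth limits these values: a member had a median of 15 reads per shallow library, against 91 in the libraries used, and counting error alone then gives an SD of 0.37 against 0.15 on the log2 scale.

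**Figure D4:**
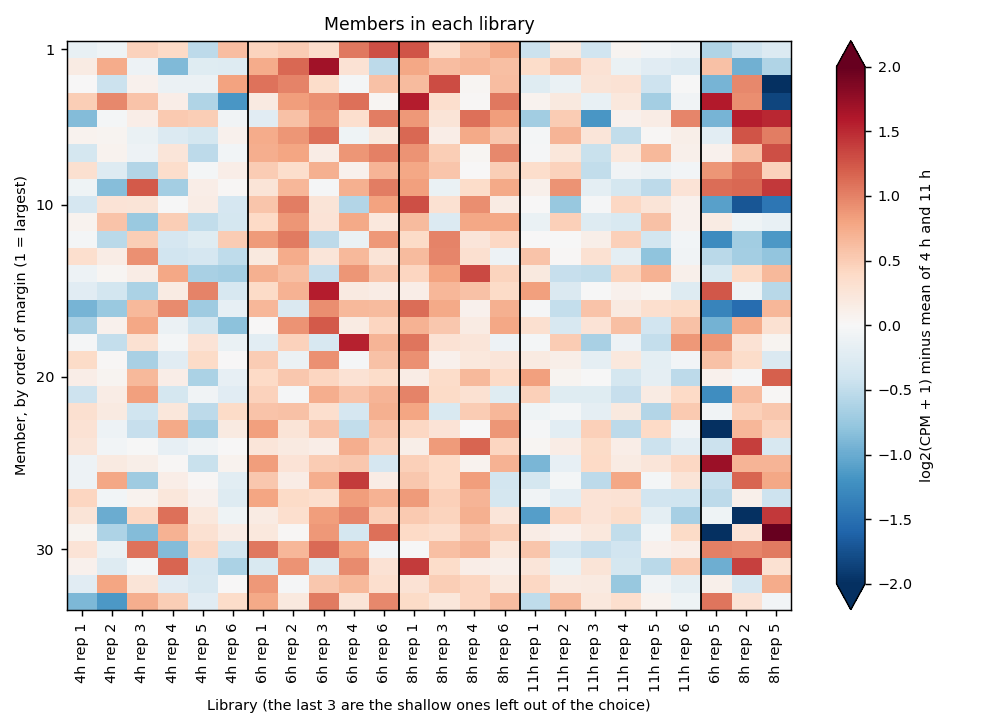
Log2(CPM + 1) minus the 4 h and 11 h mean (colour, with values beyond 2 in either direction at the end colours) for the 33 members in order of margin (rows) in each of 24 libraries (columns, by time, with the 3 shallow libraries last). The 6 h and 8 h columns are mostly red, by choice, while the last 3 columns mix deep red and deep blue, with 14, 22 and 20 of 33 members above 0.

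Choosing the members again without certain libraries gave other held-back values. Without replicate 1 at 6 h and replicate 6 at 8 h, the libraries with lower numbers, 39 genes met the criteria and 25 of them were among the 33. In replicate 1 at 6 h, 33 of these 39 lay above their 4 h and 11 h mean, with a median of 0.40, against 50.7% of the comparable genes and a median of 0.01. In replicate 6 at 8 h it was 24 of 39, with a median of 0.23, against 42.6% and -0.06. The 12 libraries at 4 h and 11 h were still those that chose the genes for being low there.

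When replicates 1 and 6 of every time were held back, none of the 12 libraries at 4 h and 11 h served both purposes. Those that chose the genes were not those that the held-back libraries were set against. The 13 libraries left chose 48 genes, of which 12 were among the 33. At 8 h only replicates 3 and 4 were left, and at 6 h replicates 2, 3 and 4, all with upper numbers. The means behind this choice thus rest on few libraries at these times. Set against replicates 1 and 6 at 4 h and 11 h, which like them have lower numbers and took no part in the choice, replicate 1 at 6 h had 29 of 48 genes above and replicate 6 at 8 h had 25 of 48. Of the comparable genes, 53.2% and 45.0% were above in these libraries. The medians of the 48 were 0.22 and 0.06, against 0.03 and -0.04 for the comparable genes. For the mean of these 2 libraries 26 of 48 genes were above (54.2%), against 48.2% of the comparable genes, and the median was 0.12 against -0.01. In replicate 6 at 6 h and replicate 1 at 8 h, also held back but with upper numbers, 28 and 25 of 48 genes were above. The shares of comparable genes above were 44.0% and 52.5%. The medians of the 48 were 0.18 and 0.04, against -0.06 and 0.03 for the comparable genes. For the mean of all 4 held-back libraries at 6 h and 8 h, 31 of 48 genes were above (64.6%), against 46.5% of the comparable genes, and the median was 0.14 against -0.03. No test was made of these values.

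**Figure D5:**
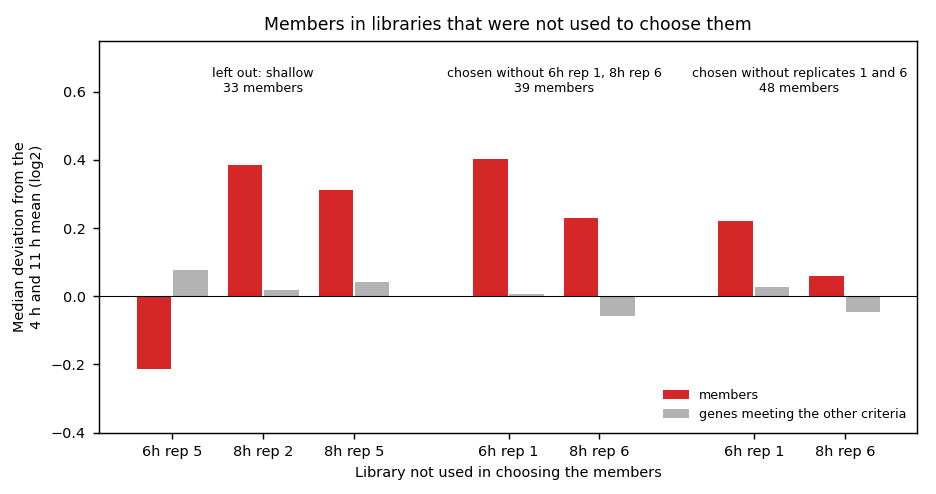
Median deviation from the 4 h and 11 h mean on the log2 scale (y axis) in libraries that did not choose the members (x axis), for members (red) and for all genes meeting the other criteria (grey). From left to right, the members are the 33, the 39 chosen without replicate 1 at 6 h and replicate 6 at 8 h, and the 48 chosen without replicates 1 and 6 of any time, the last set against replicates 1 and 6 at 4 h and 11 h only; the medians run from -0.21 to 0.40.

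Membership itself moved with single libraries. Leaving out each of the 21 libraries in turn gave 24 to 42 members, of which 22 to 30 were among the 33. Of the 33, 6 were chosen in all 21 rounds, 19 in 15 to 20 and 8 in fewer than 15. ENSGALG00010024051 was chosen in all 21 and ENSGALG00010001418 in 12. With all 24 libraries, the shallow ones included, 26 genes met the criteria and 7 of them were among the 33. In each of the 21 rounds the mirror pattern was met by more genes, 45 to 68.

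Within a time, correlations between members were centred on 0. After removing the mean of each time, the median correlation over the 528 pairs of members was 0.00 across the 21 libraries, and 2.27% of the pairs had a correlation over 0.5. Over all pairs of the 5718 comparable genes the median was 0.02 and the share over 0.5 was 2.85%. These are correlations across libraries that all genes share, including their depth, and are given as a description. The pooled SD within times was 0.29 to 0.60 for the members (median 0.46), against a median of 0.34 for the comparable genes. A fixed margin is passed more easily by genes with few reads or a wide spread. The lower level and wider spread of the members are thus partly set by the choice.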

How the data were processed

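The table holds 1 value per gene and library, matched to samples by the library name in each description. Values were deposited as natural logs: exp(value) - 1 summed to 1000000 in every library, so they are ln(CPM + 1). Salmon, BWA 0.7.17-r1188 and fastp 0.21.0 are named in the submitters' processing notes, with no role; genome build and annotation: not given in the sources used here. Reads were recovered as whole multiples of 1 step per library: 99.9995% of 406811 values above 0 were whole within 0.01 read.

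Values were converted to log2(CPM + 1) and fitted with limma 3.58.1 in R 4.3.3 (intensity trend, genes averaging 1 CPM or more). Each main fit held all 21 libraries, with Benjamini-Hochberg adjustment over 15121 genes. No covariate was used beside time, except the number range in the comparison of upper with lower library numbers. The procedure was tested on simulated data, where a minimum recovery was required only for changes larger than those of the members. Recovery at the size of their differences is not given here. The members and lists were chosen with earlier results of these data known. The rule for named genes took the 2 members with the largest margin and the 2 with the most negative moderated statistic for 8 h against 6 h. Lists of cell type and pathway genes could not be evaluated, since 0 identifiers matched names. The planned count models were set aside because the deposited unit is a log scale, although the recovered reads could have been given to them. In their place limma-voom was run on the recovered reads. TMM (trimming 30% of M and 5% of A) and median-ratio factors were computed from the recovered reads. The cut between library numbers is not given by the labels. No libraries of a time were copies (lowest chi-square per degree of freedom 8.14). Whether replicate numbers pair the libraries was not settled. Deviations correlated above 0.1 in 7 of 28 same-number pairs, and pairs with different numbers were not counted. Library numbers follow each other within some replicate numbers, such as 265, 266 and 267 for replicate 1 at 4, 6 and 11 h. The labels do not say why. P-values reflect only how far these libraries spread, which may be technical.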

Additional observations from a re-analysis of the deposited data

How the results depend on the processing

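Over 131 fits of the 4 comparisons, members were called 0 times, and only 8 of the fits called any gene. The members were chosen from these same values, so nothing about them is read from this count. For 6 h and 8 h against 4 h and 11 h every one of 32 alternatives called 0 genes. Genes at an unadjusted p under 0.05 (limma) ran from 412 of 15121, with library number range as a term, to 1309 of 27090 without a filter. These 2 counts are over unlike numbers of genes. The lower number range alone gave 526 of 15121. Both 412 and 526 lie below the 756 of evenly spread p-values over 15121 genes, and the cause was not tested. With a replicate block (the shared number as a term), 0 genes were called in each of the 4 comparisons. The labels do not state such a pairing, and the closest library of another time shared the number for 4 of 21. For 11 h against 4 h, the range term called 1 gene and a fit of only these 2 times 7; leaving out single libraries gave 0 to 9 calls, with 9 without replicate 4 at 6 h, 5 without replicate 4 at 4 h and 1 each without replicates 1 and 3 at 8 h. For 8 h against 6 h leaving out libraries gave 0 to 2, the 2 without replicate 4 at 8 h. For upper against lower library numbers, testing all genes with a read called 40, with means of at most 0.588 CPM, and leaving out libraries 0. The cause was not tested. The membership count was 91 at a margin of 0.2 and 11 at 0.4, and 24 to 42 without single libraries. The median deviation in the 2 lower-number libraries was 0.12 when members were chosen without replicates 1 and 6 and, a change made with it, set against those replicates alone at 4 h and 11 h, an alternative added after the data were seen like limma-voom, against 0.32. The difference of ENSGALG00010020945 between 8 h and 6 h changed sign to 0.10 with upper numbers only and ran from -0.34 to 0.062 without single libraries. ENSGALG00010016471 kept its sign for 8 h against 6 h in all alternatives. ENSGALG00010024051 and ENSGALG00010001418 kept theirs for 6 h and 8 h against 4 h and 11 h. Each was named for its value in that same comparison, so the kept signs are partly set by the choice. TMM gave 38 members (27 shared with the 33), median-ratio factors 41 (33 shared) and a pseudocount of 5 gave 25 (19 shared). The planned count models were not run. Depth limits the shallow libraries, as stated beside their values.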
